A study of Homo sapiens with 12 samples.

Results

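The AKT, SGK and PIM kinases are serine/threonine kinases that carry survival and growth signals, and their transcripts were followed in T47D cells with and without NF1 under the PI3K alpha inhibitor BYL719. The members are AKT1 and AKT2, SGK1, SGK2 and SGK3, PIM1, PIM2 and PIM3, and PDPK1. They were chosen by gene symbol and not by a rule on their values, though with earlier results of these data known. They are 9 of the 27864 genes in the deposited count table. Of the 9, 8 passed the filter on low counts and were among the 16081 genes tested, and SGK2 did not pass. T47D is a luminal, oestrogen receptor-positive human breast cancer line with an activating PIK3CA mutation, and NF1 encodes neurofibromin, which switches RAS off. Messenger RNA was sequenced in 4 groups: an NF1 knockout line (NF1KO) given 3 µM BYL719 (3 libraries) or the solvent DMSO (2 libraries), and a control line (CTRL) given 3 µM BYL719 (3 libraries) or DMSO (3 libraries), each for 48 h. BYL719, also called alpelisib, blocks the p110 alpha catalytic subunit of PI3K. There was 1 knockout line and 1 control line, and whether either is a single clone is not given in the sources used here, so that a difference between them cannot be told apart from other differences between the 2 lines.

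As background, PI3K makes the membrane lipid PIP3, which recruits AKT together with PDK1, the product of PDPK1. PDK1 phosphorylates the activation loop of AKT and of the SGK kinases, and the mTORC2 complex phosphorylates a second site near their C terminus. The SGK kinases resemble AKT in the catalytic domain and share part of its substrates, but lack its PIP3-binding domain. SGK3 instead has a PX domain that binds a lipid of endosomes. PIM kinases need no activating phosphorylation and are controlled mainly by transcription, often downstream of JAK-STAT signalling, and by turnover. Both SGK1 and PIM1 are known from other breast cancer work as kinases that can stand in for AKT when PI3K is inhibited. The values below are transcript levels and carry no information on phosphorylation or activity.

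Libraries held between 53283945 and 60148876 counts. NF1, the targeted gene, stood at 0.891, 0.547 and 0.400 CPM (counts scaled to the library's total) in NF1KO BYL719 libraries and 0.480 and 0.471 CPM in NF1KO DMSO libraries, against 214, 147 and 152 CPM in CTRL BYL719 libraries and 209 to 289 CPM in CTRL DMSO libraries. All 10 luminal markers were above 1 CPM in every group, with a summed level of 10720 to 11430 CPM in NF1KO BYL719, 11150 to 11290 in NF1KO DMSO, 12030 to 14000 in CTRL BYL719 and 9929 to 11430 in CTRL DMSO libraries. Single luminal markers did differ: in NF1KO against CTRL, 3 of 10 were called lower in DMSO (ESR1 at -0.83 ± 0.09, PGR at -0.61 ± 0.12 and FOXA1 at -0.39 ± 0.07), and 5 were called lower in BYL719, these 3 with KRT8 and KRT19. Of all tested genes, 10.3% were called lower in DMSO and 19% in BYL719. With the drug, 2 of the 10 were called higher in NF1KO and 5 in CTRL, against 10.3% and 22.6% of all tested genes. Summed fibroblast markers, nearly all COL1A1 with COL3A1 and DCN at or near 0, were 16.8 to 21.3, 26.0 to 26.1, 27.5 to 35.9 and 49.8 to 55.4 CPM in the same order of groups. Summed leukocyte markers, nearly all CD68, were between 0.688 and 2.71 CPM, and summed basal markers between 2.02 and 3.04 CPM. CD68 was called lower in NF1KO than in CTRL in both treatments. The basal marker KRT17 averaged 1.31 CPM in CTRL BYL719, against 0.221 in CTRL DMSO and 0.108 in NF1KO BYL719. TP63, also basal, averaged 0.823 CPM in NF1KO DMSO against 0.189 in CTRL DMSO. The part of these markers, of COL1A1 and of the luminal markers, which moved with the groups, in the results was not tested. Replicates of a group differed by 6.83 to 67.8 chi-square per degree of freedom over genes, so none was a copy of another. The CTRL library numbered 1 stood apart from numbers 2 and 3 in both treatments (50.0 to 67.8), and results are given without both of these libraries where a call changed. Nothing in the labels says that replicates came from separate cultures, so p values measure the spread between these libraries, which may be technical. In bulk RNA, fewer cells with a transcript and less of it per cell cannot be told apart.

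The members did not share a direction. With BYL719, NF1KO cells had more SGK1 and SGK3 and less AKT1, while CTRL cells had less PIM1 and PIM2. In the knockout line 2 of the 8 tested members rose and 1 fell, where 18.7% of all tested genes were called (10.3% higher and 8.47% lower). In the control line 2 of 8 fell and 0 rose, against 44.4% of all genes called (22.6% higher and 21.8% lower). That count of 0 came from edgeR's quasi-likelihood test, and 0 members were also higher at an unadjusted p under 0.05, by DESeq2 and by limma-voom. Another fit blocked replicates of equal number inside each line, which treats them as pairs, although no label says that they are. In it the control line gave 6 calls of 8 in place of 2: PDPK1 higher, and AKT1, SGK1 and PIM3 lower beside PIM1 and PIM2. That fit called 10202 of the 16081 tested genes. The BYL719 effect itself differed between the lines for 3 of 8 members (SGK1, SGK3 and PIM1), each higher in NF1KO, where 9.39% of all genes were called (5.68% higher and 3.71% lower). NF1KO against CTRL gave 3 calls of 8 in DMSO, with PIM3 higher and SGK1 and SGK3 lower, against 20.3% of all genes (9.99% higher and 10.3% lower). In BYL719 it gave 5 of 8, with SGK3, PIM1, PIM2 and PIM3 higher and AKT1 lower, against 39.8% of all genes (20.8% higher and 19% lower). The median log2 fold change of the tested members was 0.06 for BYL719 in NF1KO and -0.12 for BYL719 in CTRL, beside 0.01 and 0.0049 over all tested genes. It was -0.04 for the line difference in DMSO and 0.12 in BYL719, beside -0.01 and -0.0025. For the difference of the BYL719 effects it was 0.20, beside 0.01. A call is an adjusted p under 0.05 from edgeR's quasi-likelihood test, adjusted by Benjamini-Hochberg over all tested genes, and changes are log2 fold changes ± SE.

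**Figure D1:**
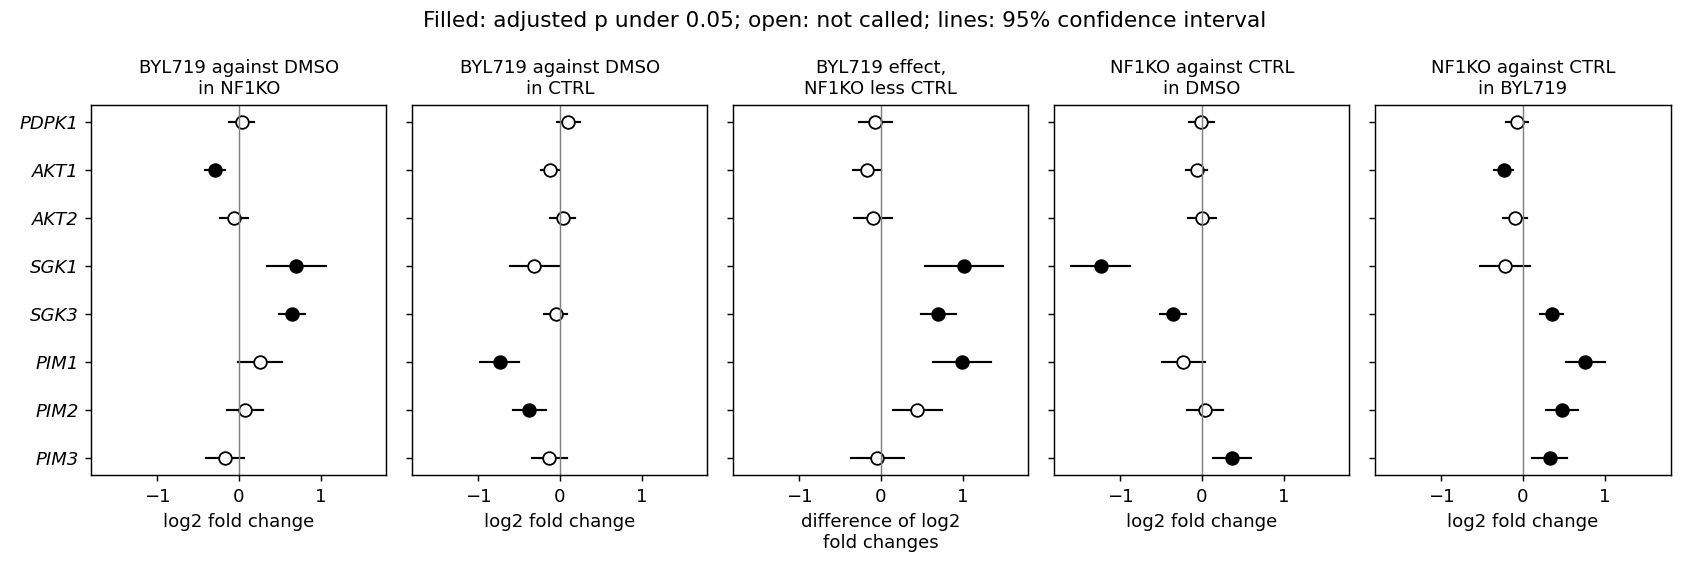
Log2 fold changes (x axis) of the 8 tested members (rows) in 5 comparisons, with 95% confidence intervals as lines and filled points for an adjusted p under 0.05; the middle panel is the difference of the BYL719 effects, NF1KO less CTRL. SGK1, SGK3 and PIM1 lie right of 0 in the middle panel, at 1.01, 0.70 and 0.99, and PDPK1 and AKT2 are open in every panel.

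PDPK1, the upstream kinase shared by AKT and SGK, was nearly level across the groups. It stood at 67.4, 67.7 and 63.6 CPM in NF1KO BYL719 libraries and 65.7 and 63.3 CPM in NF1KO DMSO libraries, against 74.0, 68.3 and 67.2 CPM in CTRL BYL719 libraries and 66.7, 62.0 and 66.2 CPM in CTRL DMSO libraries. The groups overlapped except for BYL719 and DMSO in CTRL, where the BYL719 libraries were the higher ones. That difference of 0.10 ± 0.06 was not called (adjusted p = 0.196). It passed once replicates of equal number were blocked inside each line (adjusted p = 0.0462), though no label says that such libraries are paired. The difference of the BYL719 effect was -0.07 (95% interval -0.27 to 0.14, adjusted p = 0.763). The gene lies at chr16:2538021-2603188 (GRCh38.p14), and a nearby pseudogene copy, PDPK2P, was not analysed here, so reads from that copy cannot be told apart from those of PDPK1.

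AKT1, the most widely expressed AKT kinase, was lowest in drug-treated knockout cells. It had 117, 119.9 and 119 CPM in NF1KO BYL719 libraries, against 144 and 146 CPM in NF1KO DMSO libraries. In CTRL it had 138, 139 and 143 CPM with BYL719, against 152, 150.2 and 154 CPM with DMSO. No group overlapped another, and their order was NF1KO BYL719, CTRL BYL719, NF1KO DMSO and CTRL DMSO from low to high. AKT1 fell by 0.29 ± 0.06 with BYL719 in NF1KO (adjusted p = 0.00463), a fold of 0.817. The call was lost without NF1KO DMSO replicate 3 (adjusted p = 0.0645). In CTRL the change of -0.12 ± 0.05 was not called (adjusted p = 0.0736). The fit blocked by replicate number within each line called it (adjusted p = 0.0139). So did a block over all libraries (adjusted p = 0.0486) and DESeq2 (adjusted p = 0.0165). The difference of the 2 effects, -0.17 ± 0.08, had a 95% interval of -0.34 to -0.0043 and an adjusted p of 0.225, and DESeq2 called it (adjusted p = 0.0378). AKT1 was lower in NF1KO than in CTRL under BYL719, by -0.24 ± 0.05 (adjusted p = 0.00282), and not called in DMSO at -0.07 ± 0.06 (adjusted p = 0.451).

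AKT2, known best for its part in insulin-driven glucose uptake, passed no comparison in that test. It ranged from 114 to 121 CPM in NF1KO BYL719 libraries, 121.7 to 122 CPM in NF1KO DMSO libraries, 116 to 132 CPM in CTRL BYL719 libraries and 113 to 130.2 CPM in CTRL DMSO libraries. All pairs of groups compared overlapped apart from NF1KO BYL719 and NF1KO DMSO. The BYL719 effect was -0.06 ± 0.08 in NF1KO (adjusted p = 0.642) and 0.04 ± 0.07 in CTRL (adjusted p = 0.716), and the 95% interval of their difference was -0.32 to 0.13. The line difference in BYL719, -0.10 ± 0.07 (adjusted p = 0.299), passed only without both CTRL libraries numbered 1 (-0.14, adjusted p = 0.0473). AKT1 lies at chr14:104769349-104795748 and AKT2 at chr19:40230317-40285345.

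SGK3, the endosomal member of its family, went up with BYL719 in NF1KO and hardly moved in CTRL. It had 110.4, 104 and 100.4 CPM in NF1KO BYL719 libraries, against 67.04 and 66.8 CPM in NF1KO DMSO libraries. In CTRL it had 84.3, 78.3 and 84.7 CPM with BYL719, against 90.3, 82.7 and 83.3 CPM with DMSO. Both CTRL groups lay between the NF1KO groups without overlapping either, and they overlapped each other. SGK3 rose by 0.65 ± 0.07 with BYL719 in NF1KO (adjusted p = 0.000176), a fold of 1.57. In CTRL the change was -0.05 ± 0.06 (95% interval -0.19 to 0.09, adjusted p = 0.542). The difference of the effects was 0.70 ± 0.10 (95% interval 0.49 to 0.91, adjusted p = 0.000608).

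The line difference of SGK3 turned its sign with treatment. Under the drug NF1KO was higher than CTRL, at 0.35 ± 0.06 (adjusted p = 0.000832), and under DMSO it was lower, at -0.35 ± 0.07 (adjusted p = 0.00429). The DMSO call was lost without NF1KO DMSO replicate 2 (adjusted p = 0.0513) or 3 (adjusted p = 0.0571), which leaves 1 library in that group, assumed to vary like the others. SGK3 lies at chr8:66712781-66862022 inside the readthrough gene C8orf44-SGK3, whose counts summed to 100.7% of those of SGK3, so nearly the same reads appear to be listed for both. C8orf44-SGK3 had the same changes to within 0.02, among them 0.65 ± 0.07 with BYL719 in NF1KO and -0.04 ± 0.06 in CTRL. The upstream gene C8orf44 on its own rose with BYL719 in both lines, by 0.83 ± 0.12 in NF1KO (adjusted p = 0.000785) and 1.29 ± 0.10 in CTRL (adjusted p = 1.16e-06). Its level was 3.42 to 3.76 CPM in NF1KO BYL719, 2.01 to 2.07 CPM in NF1KO DMSO, 5.61 to 6.11 CPM in CTRL BYL719 and 2.32 to 2.43 CPM in CTRL DMSO libraries. The pseudogene PTTG3P, which lies within SGK3, held 5.68% of its counts.

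SGK1, the serum- and glucocorticoid-induced kinase, was scarce and was lowest in untreated knockout cells. It had 3.41, 3.08 and 3.24 CPM in NF1KO BYL719 libraries, against 1.86 and 2.12 CPM in NF1KO DMSO libraries. In CTRL it had 3.18, 3.81 and 4.35 CPM with BYL719, against 4.05, 4.88 and 5.14 CPM with DMSO. The NF1KO DMSO libraries lay below all 9 others, while the other groups overlapped their neighbours in level. These levels rest on 101 to 277 counts per library. SGK1 was lower in NF1KO than in CTRL in DMSO by -1.23 ± 0.17 (adjusted p = 0.000218), a fold of 0.425. In BYL719 the line difference was -0.22 ± 0.14 (95% interval -0.53 to 0.08, adjusted p = 0.236), and it passed without both CTRL libraries numbered 1 (-0.33, adjusted p = 0.0353).

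The BYL719 effect on SGK1 had opposite signs in the 2 lines. SGK1 rose by 0.70 ± 0.17 in NF1KO (adjusted p = 0.0129), a fold of 1.63, and this call was lost without NF1KO DMSO replicate 2 (0.61, adjusted p = 0.124) or 3 (0.79, adjusted p = 0.0677). In CTRL the change was -0.31 ± 0.14 (adjusted p = 0.0862). It passed in the fit blocked by number within each line (adjusted p = 0.00903) and with a block over all libraries (adjusted p = 0.0395). The same change passed without CTRL DMSO replicate 1 (-0.41, adjusted p = 0.0347) and without CTRL BYL719 replicate 3 (-0.42, adjusted p = 0.047). The difference of the effects was 1.01 ± 0.22 (95% interval 0.54 to 1.48, adjusted p = 0.0111), and that call was lost without NF1KO DMSO replicate 2 (0.93, adjusted p = 0.077). SGK1 lies at chr6:134169256-134318112. SGK2, at chr20:43559027-43585627, had 5, 4 and 3 counts in NF1KO BYL719 libraries and 1 and 1 in NF1KO DMSO libraries, against 9, 5 and 1 in CTRL BYL719 libraries and 4, 3 and 3 in CTRL DMSO libraries. A difference in SGK2 was not detectable at these counts.

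**Figure D2:**
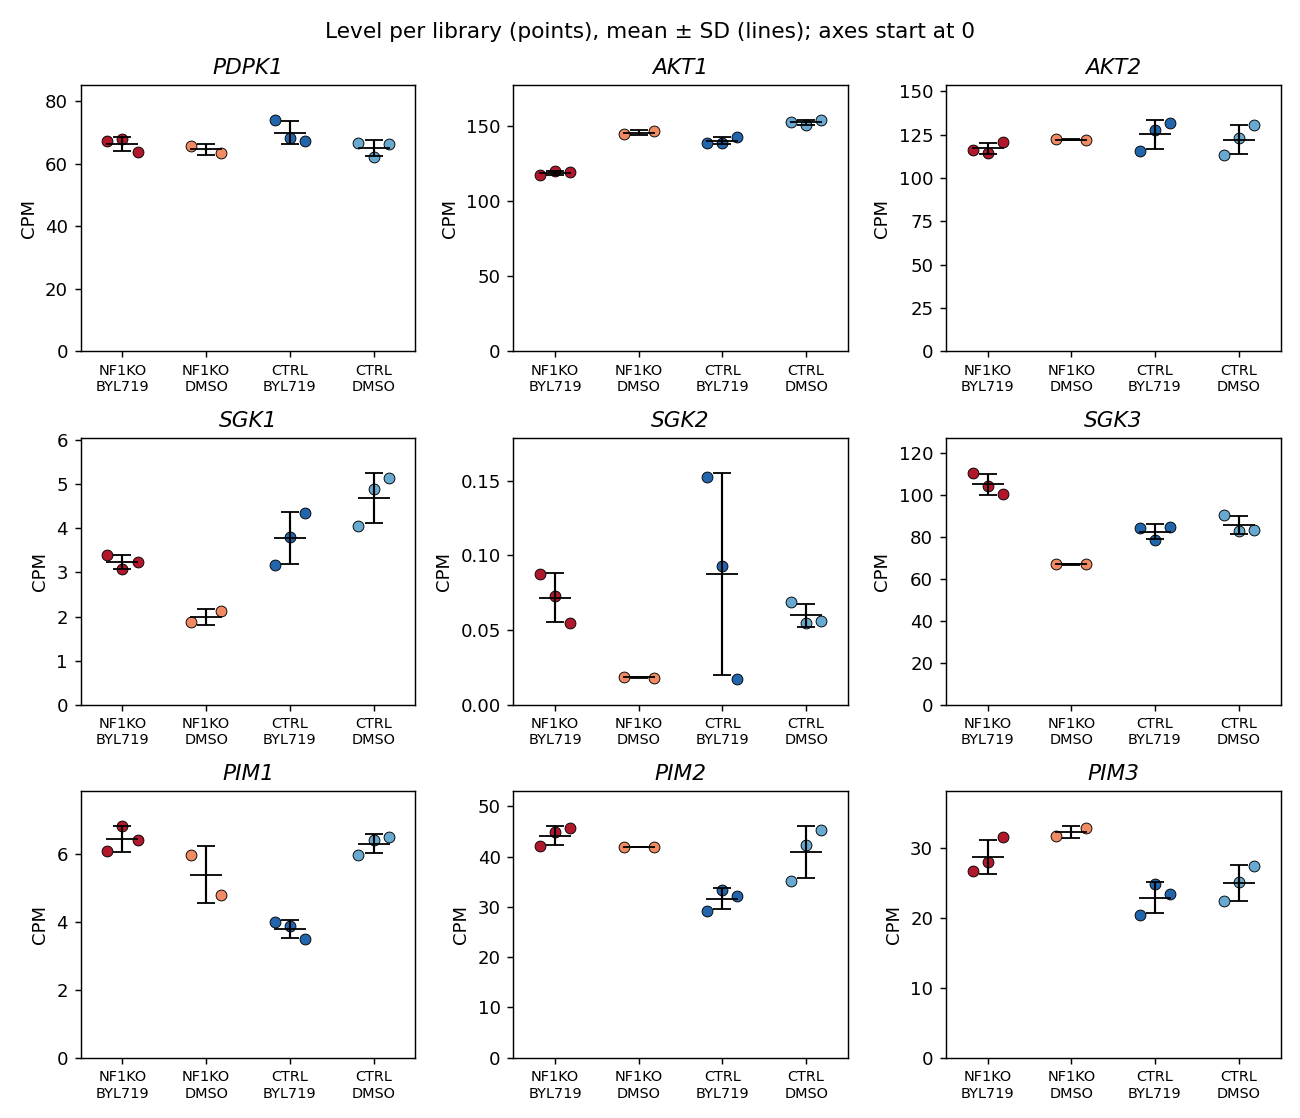
Level in CPM (y axes, each from 0) of the 9 members in every library, by group, with the mean and SD as lines. The NF1KO BYL719 libraries are the highest of all for SGK3 (100.4 to 110.4 CPM) and the lowest for AKT1 (117 to 119.9 CPM), and the CTRL BYL719 libraries are the lowest for PIM1 (3.504 to 3.99 CPM) and PIM2 (29.3 to 33.4 CPM).

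Among the PIM kinases, PIM1 and PIM2 fell with BYL719 in CTRL, and the difference of that effect between the lines was called for PIM1 but not for PIM2. All 3 were higher in NF1KO than in CTRL under the drug. Their proximal promoters are shown here because the 3 genes are 1 family and shared that direction, a choice made with these values seen. SGK3 was also higher in NF1KO under the drug, and its promoter is not shown. Each line gives the 250 bases before the annotated start on the gene's own strand from RefSeq (GRCh38.p14), with matches to the octamer ATTTGCAT, on either strand, in capitals.
PIM1 (chr6:37169902-37170151, plus strand): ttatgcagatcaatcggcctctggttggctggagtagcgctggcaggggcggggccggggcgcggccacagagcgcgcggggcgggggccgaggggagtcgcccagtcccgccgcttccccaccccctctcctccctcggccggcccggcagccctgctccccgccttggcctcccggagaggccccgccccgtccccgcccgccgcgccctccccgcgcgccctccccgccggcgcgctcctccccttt
PIM2 (chrX:48919025-48919274, minus strand): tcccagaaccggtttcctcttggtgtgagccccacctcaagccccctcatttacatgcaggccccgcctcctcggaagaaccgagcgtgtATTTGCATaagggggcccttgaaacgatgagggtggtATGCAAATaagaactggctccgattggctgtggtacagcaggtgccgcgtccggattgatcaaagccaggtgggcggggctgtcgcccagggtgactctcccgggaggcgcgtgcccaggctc
PIM3 (chr22:49960522-49960771, plus strand): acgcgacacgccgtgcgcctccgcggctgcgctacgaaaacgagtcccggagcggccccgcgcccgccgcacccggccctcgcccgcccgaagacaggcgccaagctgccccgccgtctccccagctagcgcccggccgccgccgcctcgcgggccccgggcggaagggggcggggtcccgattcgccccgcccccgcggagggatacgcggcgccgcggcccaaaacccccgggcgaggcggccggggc

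The windows of PIM1 and PIM3 were rich in G and C (79.6% and 82.0%), and that of PIM2 less so (61.2%). PIM2 carried 2 octamer matches, ATTTGCAT at 160 to 153 and ATGCAAAT at 123 to 116 bases before the start. One or more octamers occur in 1.63% of 35116 windows of the same length, and 2 or more in 0.037% (13 windows), and this motif was picked after the sequence had been seen. No window held the STAT motif TTCNNNGAA (6.57% of all windows), the full palindromic glucocorticoid element (0.00285%), the FOXO motif TGTTTAC (2.98%), the AP-1 motif TGANTCA (6.57%), the E-box CACGTG (6.34%) or the CRE motif TGACGTCA (1.65%), searched on both strands. The absence says only that these letters are not in these windows.

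PIM1, the founding member and a known STAT target, had 6.08, 6.82 and 6.42 CPM in NF1KO BYL719 libraries, against 5.98 and 4.80 CPM in NF1KO DMSO libraries. In CTRL it had 3.99, 3.89 and 3.504 CPM with BYL719, against 5.98, 6.41 and 6.51 CPM with DMSO. The CTRL BYL719 libraries were below all 8 others, and the NF1KO BYL719 and CTRL DMSO libraries overlapped. PIM1 fell by 0.73 ± 0.11 with BYL719 in CTRL (adjusted p = 0.000199), a fold of 0.602. In NF1KO the change was 0.26 ± 0.12 (95% interval -0.0066 to 0.52, adjusted p = 0.161), with no overlap between the groups. The effects differed by 0.99 ± 0.16 (95% interval 0.63 to 1.34, adjusted p = 0.00226). NF1KO exceeded CTRL by 0.76 ± 0.11 in BYL719 (adjusted p = 0.000139), a fold of 1.697, and the DMSO difference of -0.23 ± 0.12 was not called (adjusted p = 0.211). Counts behind these levels were 203 to 374 per library. PIM1 lies at chr6:37170152-37175428.

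PIM2, which like PIM1 phosphorylates BAD and the translational repressor 4E-BP1, had 42.0, 44.8 and 45.6 CPM in NF1KO BYL719 libraries, against 42.0 and 41.9 CPM in NF1KO DMSO libraries. In CTRL it had 29.3, 33.4 and 32.3 CPM with BYL719, against 35.2, 42.3 and 45.2 CPM with DMSO. As for PIM1, the CTRL BYL719 libraries were the lowest, but the CTRL DMSO library numbered 1 came close to them. PIM2 fell by 0.37 ± 0.09 with BYL719 in CTRL (adjusted p = 0.00537), a fold of 0.773. In NF1KO the change was 0.08 ± 0.10 (95% interval -0.14 to 0.29, adjusted p = 0.656). The difference of the effects, 0.45 ± 0.13 (95% interval 0.15 to 0.74), was not called (adjusted p = 0.0609). It was called in the fit blocked by number within each line (0.48, adjusted p = 0.000123) and with a block over all libraries (0.51, adjusted p = 0.0027). The same difference was called without CTRL DMSO replicate 1 (0.55, adjusted p = 0.00784), without both CTRL libraries numbered 1 (0.49, adjusted p = 0.00275) and by DESeq2 (0.43, adjusted p = 0.0336). In BYL719, PIM2 was higher in NF1KO than in CTRL by 0.48 ± 0.09 (adjusted p = 0.00104), a fold of 1.40, and in DMSO the difference was 0.04 ± 0.10 (adjusted p = 0.834). PIM2 lies at chrX:48913182-48919024.

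PIM3 differed between the lines and was not called for the drug. It had 26.7, 27.9 and 31.5 CPM in NF1KO BYL719 libraries and 31.7 and 32.8 CPM in NF1KO DMSO libraries, against 20.4, 24.8 and 23.4 CPM in CTRL BYL719 libraries and 22.4, 25.1 and 27.4 CPM in CTRL DMSO libraries. The NF1KO libraries lay above the CTRL libraries of the same treatment without overlap. Between the lines the fold change was 0.37 ± 0.11 under DMSO (adjusted p = 0.031) and, under the drug, 0.33 ± 0.10 (adjusted p = 0.0182). The DMSO call ended on leaving out either NF1KO DMSO library (adjusted p = 0.113 without number 2 and 0.178 without number 3) or CTRL DMSO number 1 or 2 (adjusted p = 0.0839 and 0.0668). The call under BYL719 ended on leaving out NF1KO BYL719 number 3 (adjusted p = 0.0743) or CTRL BYL719 number 1 (adjusted p = 0.0568). BYL719 gave -0.17 ± 0.11 in NF1KO (adjusted p = 0.308) and -0.13 ± 0.10 in CTRL (adjusted p = 0.318, or 0.0476 in the fit blocked by number within each line). The difference of the effects was -0.04 (95% interval -0.36 to 0.28). PIM3 lies at chr22:49960772-49964072.

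Levels between genes were compared as CPM per kilobase of annotated exon. AKT1 was the highest member in every group, with 25.9 ± 0.28 in NF1KO BYL719, 31.7 ± 0.31 in NF1KO DMSO, 30.5 ± 0.52 in CTRL BYL719 and 33.1 ± 0.40 in CTRL DMSO (mean ± SD, n = 3, 2, 3 and 3). In NF1KO BYL719 libraries PIM2 (21.3 ± 0.91), SGK3 (20.2 ± 0.97) and AKT2 (20.0 ± 0.56) followed and did not differ beyond their spread. In CTRL BYL719 libraries AKT2 (21.4 ± 1.44) stood above SGK3 (15.9 ± 0.69) and PIM2 (15.2 ± 1.02), which were within their spread of each other. PIM3 ranged from 9.66 to 13.6 by group mean and came after AKT2, PIM2 and SGK3 except in NF1KO DMSO, where it (13.6 ± 0.35) stood above SGK3 (12.9 ± 0.04). PDPK1, at 8.22 to 8.90, was the sixth in every group. PIM1 (1.43 to 2.43), SGK1 (0.314 to 0.740) and SGK2 (0.0067 to 0.0320) were the seventh to ninth in every group. With lengths over all annotated transcripts the 4 lowest kept their places, but the highest member was SGK3 in NF1KO BYL719 (16.2) and CTRL BYL719 (12.7) and PIM2 in NF1KO DMSO (15.2) and CTRL DMSO (14.8), so the order at the top depends on the lengths used.

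By these levels the SGK family was almost wholly SGK3, which made up 95.1% to 97.7% of its sum in every library. The SGK sum was 19.9 to 21.8 CPM per kb in NF1KO BYL719, against 13.2 in both NF1KO DMSO libraries. It was 15.7 to 17.0 in CTRL BYL719, against 16.7 to 18.1 in CTRL DMSO. The PIM sum was 33.8 to 37.7 in NF1KO BYL719, against 35.8 to 35.9 in NF1KO DMSO, and 24.2 to 28.0 in CTRL BYL719, against 28.7 to 35.8 in CTRL DMSO. PIM2 gave 56.3% to 61.0% of the PIM sum and PIM1 4.95% to 7.87%. The sum of AKT1 and AKT2 was 45.4 to 46.5 in NF1KO BYL719, against 52.4 to 52.7 in NF1KO DMSO, and 49.9 to 53.6 in CTRL BYL719, against 52.5 to 55.8 in CTRL DMSO. The 3 families thus differed in which group was apart: NF1KO BYL719 was highest for SGK and lowest for AKT, and CTRL BYL719 was lowest for PIM.

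**Figure D3:**
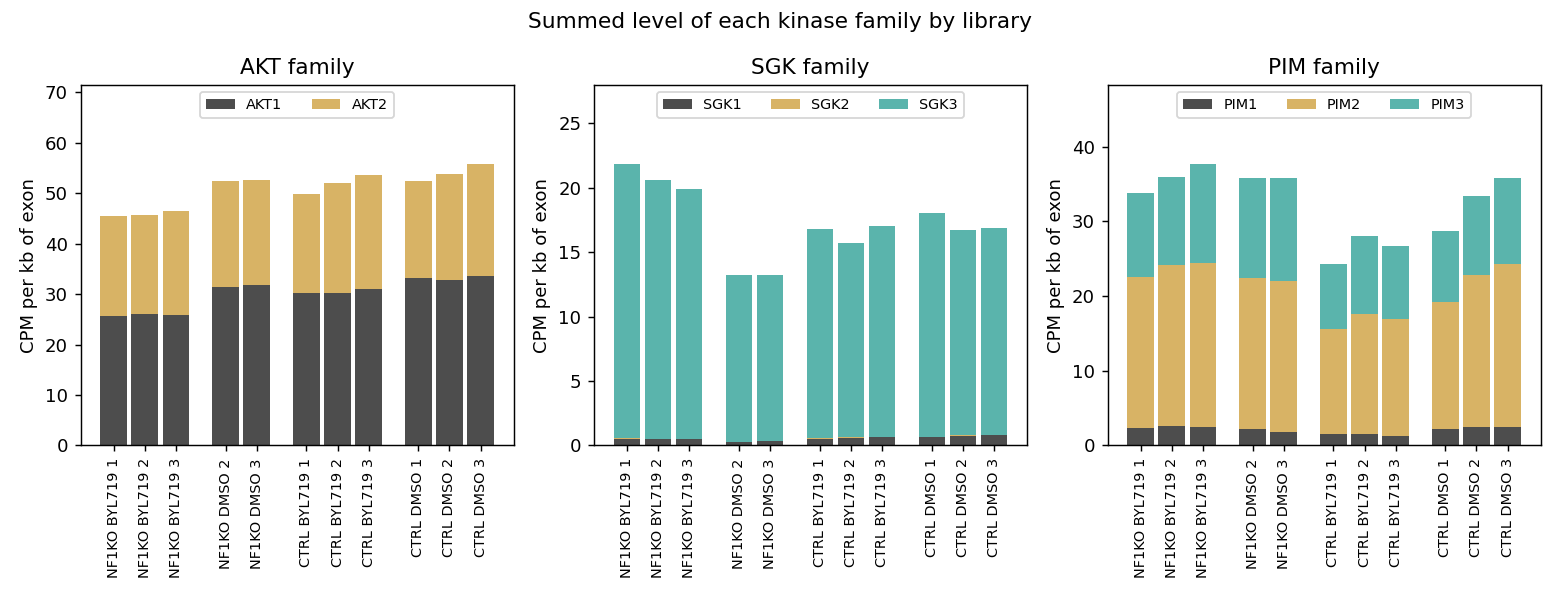
Summed level of each kinase family in every library (bars, CPM per kb of exon, axes from 0), split by member. The SGK bars reach 19.9 to 21.8 in NF1KO BYL719 and 13.2 in NF1KO DMSO, and nearly all of each bar is SGK3, while the PIM bars are lowest in CTRL BYL719 at 24.2 to 28.0.

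Across the 11 libraries, log2 levels of PIM1 and PIM2 correlated at a Pearson r of 0.85, PIM2 and PIM3 at 0.80, and AKT1 and SGK3 at -0.73. These values describe libraries that share groups and are no test. Of 11121 genes compared, DHDDS (0.984), GPR39 (0.980) and ACLY (0.969), which makes cytosolic acetyl-CoA, were most like AKT1. AKT2 was most like ACOT1 (0.940), NRSN2 (0.936) and PIGT (0.936), and PDPK1 like ERCC6 (0.920), FAM120A (0.919) and MAP9 (0.910). For SGK1 they were SGCE (0.948), NREP (0.937) and VGLL4 (0.937), and for SGK3, after the readthrough gene, SLC35E3 (0.954) and MELTF (0.919). PIM1 was followed most closely by TIFA (0.952), CNEP1R1 (0.951) and RCCD1 (0.944), PIM2 by H1-10 (0.973), HNRNPL (0.964) and PLP2 (0.961), and PIM3 by TMUB1 (0.984), RAB34 (0.981) and TNNT1 (0.981).

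Genes that control AKT activity (phosphatases, mTORC2 subunits, tribbles pseudokinases and chaperones) were tested for 18 of 19. Over all tested genes, 18.7% were called for BYL719 in NF1KO and 44.4% in CTRL. Between the lines 20.3% were called in DMSO and 39.8% in BYL719. The difference of effects was called for 9.39%, or 4345 of 16081 genes in the fit blocked by number within each line. With BYL719, 2 list genes rose and 3 fell in NF1KO (median -0.10, all tested genes 0.01). In CTRL 2 rose and 6 fell (median -0.11, all tested genes 0.0049), near the share of all tested genes. TRIB3, which binds AKT, fell with BYL719 by 0.80 ± 0.10 in NF1KO (adjusted p = 0.000468) and by 0.35 ± 0.09 in CTRL (adjusted p = 0.00906), and the difference was not called (adjusted p = 0.0696). In DMSO it was higher in NF1KO than in CTRL by 0.89 ± 0.10 (adjusted p = 6.51e-05). TRIB1, a related pseudokinase, rose by 0.79 ± 0.08 in CTRL (adjusted p = 1.46e-05). It was the 1 gene of the list whose effect differed between the lines (-0.47 ± 0.13, adjusted p = 0.0387), against 5 in the fit blocked by number within each line. The TRIB1 call was lost without each CTRL DMSO, NF1KO DMSO or NF1KO BYL719 library in turn (adjusted p 0.0611 to 0.213). The 5 calls for BYL719 in NF1KO became 1 without NF1KO DMSO replicate 2 or 3, and 2 without NF1KO BYL719 replicate 1 or 2. NF1KO against CTRL gave 2 higher and 2 lower in DMSO and 4 higher and 3 lower in BYL719, with THEM4, an AKT-binding protein, lower in both (-0.49 ± 0.08 and -0.37 ± 0.07). The 4 calls in DMSO became 2 without CTRL DMSO replicate 1 or 3 or NF1KO DMSO replicate 2, and 7 without both CTRL libraries numbered 1.

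Other kinases of the same AGC group were tested for 25 of 27. Of all tested genes, 18.7% were called for BYL719 in NF1KO, and 20.3% and 39.8% between the lines in DMSO and BYL719. The difference of effects was called for 9.39%, or 4345 of 16081 genes in the fit blocked by number within each line. In NF1KO, 4 fell with BYL719 (median 0.0033), led by RPS6KB2, an S6 kinase (-0.54 ± 0.10, adjusted p = 0.00421), which also fell in CTRL (-0.60 ± 0.09, adjusted p = 0.000279; difference 0.06 ± 0.14, adjusted p = 0.87). In CTRL, 5 rose and 6 fell (median 0.03), near the 44.4% of all tested genes called there. The fit blocked by number within each line gave 8 and 9, and called 10202 of all 16081 tested genes. RPS6KA2, an RSK kinase downstream of ERK, rose by 1.12 ± 0.15 in CTRL, and the kinase PKN3 fell by 0.81 ± 0.11. These were also the 2 genes whose effects differed between the lines (-1.24 ± 0.22 for RPS6KA2 and 0.74 ± 0.16 for PKN3), against 6 in the blocked fit, and the PKN3 call was lost without NF1KO DMSO replicate 3 (adjusted p = 0.0652). Between the lines, 4 were higher and 7 lower in BYL719. In DMSO 0 were called in edgeR's test, where 2 were higher and 4 lower at an unadjusted p under 0.05. DESeq2 called 3 there and limma-voom 0, and leaving out 1 library gave up to 5 (without CTRL BYL719 replicate 1). The 4 calls for BYL719 in NF1KO became 1 and 2 without NF1KO DMSO replicates 2 and 3, and the 11 in CTRL became 7 without CTRL DMSO replicate 3.

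All 23 substrates of AKT, SGK or PIM kinases were tested. The shares called over all tested genes were 18.7% for BYL719 in NF1KO and 44.4% in CTRL. They were 20.3% in DMSO and 39.8% in BYL719 between the lines. For the difference of effects the share was 9.39%, or 4345 of 16081 genes in the fit blocked by number within each line. With BYL719, 4 rose and 3 fell in NF1KO (median 0.03), and 8 rose and 5 fell in CTRL (median 0.06). NDRG1, whose phosphorylation is a common readout of SGK1, rose in both lines, by 1.53 ± 0.19 in NF1KO (adjusted p = 0.000342) and 1.09 ± 0.15 in CTRL (adjusted p = 9.65e-05), and the difference of 0.44 ± 0.23 was not called (adjusted p = 0.325). It was far lower in NF1KO than in CTRL, at -2.97 ± 0.19 under DMSO (adjusted p = 5.79e-07) and -2.53 ± 0.16 under the drug (adjusted p = 1.21e-07). IRS1, the insulin receptor adaptor, rose with BYL719 by 0.73 ± 0.08 in NF1KO and 1.26 ± 0.07 in CTRL. CDC25C, a mitotic phosphatase that PIM kinases can phosphorylate, fell by 1.499 ± 0.08 in CTRL, and its effect differed between the lines by 1.51 ± 0.12 (adjusted p = 2.61e-05). Effects differed for 4 of 23, or 12 in the blocked fit. Between the lines 3 were higher and 5 lower in DMSO, and 5 higher and 6 lower in BYL719, among them NEDD4L, a ubiquitin ligase phosphorylated by SGK1 (-1.36 ± 0.06 in BYL719). The 7 calls for BYL719 in NF1KO became 3 without NF1KO DMSO replicate 3, and the 8 between the lines in DMSO became 5 without either NF1KO DMSO library or CTRL DMSO replicate 2.

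Glucocorticoid-responsive genes were followed because SGK1 is one, and all 12 were tested. Among all tested genes, the drug gave calls for 18.7% in NF1KO and 44.4% in CTRL. Line differences were called for 20.3% in DMSO and 39.8% in BYL719, and differing effects for 9.39%. With BYL719, 5 rose and 1 fell in NF1KO, and 7 rose and 1 fell in CTRL, where the median was 0.49 (all tested genes 0.0049). FKBP5 went down in CTRL, from a mean of 102.7 CPM in DMSO to 78.0 CPM in BYL719. SGK1 itself changed by -0.31 ± 0.14 in CTRL (adjusted p = 0.0862) and by 0.70 ± 0.17 in NF1KO (adjusted p = 0.0129). DUSP1, a MAP kinase phosphatase, rose by 1.49 ± 0.13 in CTRL (adjusted p = 3.68e-06), and its effect was smaller in NF1KO by -1.01 ± 0.20 (adjusted p = 0.00807, or 0.0538 without NF1KO DMSO replicate 2). ZBTB16 was called in CTRL with 49, 51 and 106 counts in BYL719 libraries, against 1, 1 and 2 in DMSO libraries, while NF1KO libraries had 1 in each with BYL719 and 0 with DMSO. Effects differed for 3 genes, all lower in NF1KO. Under BYL719, 1 was higher and 8 lower in NF1KO than in CTRL (median -0.39), among them the glucocorticoid receptor NR3C1 itself (-0.65 ± 0.08, adjusted p = 2.79e-05). In DMSO 1 was higher and 2 lower. The 6 calls for BYL719 in NF1KO became 1 to 3 on leaving out any single NF1KO library. The 3 differing effects became 0 without NF1KO DMSO replicate 2, and 1 without NF1KO DMSO replicate 3, NF1KO BYL719 replicate 2 or CTRL DMSO replicate 2 or 3. The 3 calls in DMSO became 1 without NF1KO DMSO replicate 3 and 5 without both CTRL libraries numbered 1. Without ZBTB16, whose NF1KO DMSO libraries were at 0, the median was -0.23 in DMSO and 0.28 for BYL719 in NF1KO.

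JAK-STAT pathway genes, to which PIM transcription is tied, were tested for 19 of 20. All tested genes gave 18.7% called for BYL719 in NF1KO and 44.4% in CTRL, and between the lines 20.3% in DMSO and 39.8% in BYL719. For the difference of effects they gave 9.39%, or 4345 of 16081 genes in the fit blocked by number within each line. With BYL719, 8 rose and 2 fell in NF1KO (median 0.09), and 8 rose and 3 fell in CTRL (median 0.18). SOCS2, a STAT5-induced feedback inhibitor, rose by 2.30 ± 0.29 in NF1KO (adjusted p = 0.000422) and 3.00 ± 0.21 in CTRL (adjusted p = 5.3e-07). IL6ST, the shared receptor subunit gp130, rose by 0.83 ± 0.10 in NF1KO and 0.31 ± 0.08 in CTRL. NF1KO was below CTRL for 6 genes in DMSO and 11 in BYL719, and above for 1 and 2. These included JAK1 in DMSO (-0.71 ± 0.09) and STAT3 in BYL719 (-0.54 ± 0.05, adjusted p = 5.28e-06), where PIM1 was higher in NF1KO. A link between STAT3 and PIM1 was not tested, and transcript levels do not measure STAT activity. Effects differed for 3 genes, or 7 in the blocked fit. The STAT3 difference was -0.40 ± 0.08 (adjusted p = 0.00682, or 0.0517 without NF1KO DMSO replicate 2). The 10 calls for BYL719 in NF1KO became 2 and 3 without NF1KO DMSO replicates 2 and 3. The 3 differing effects became 0 without NF1KO DMSO replicate 2, 1 without NF1KO DMSO replicate 3, NF1KO BYL719 replicate 2 or CTRL BYL719 replicate 2, and 5 without both CTRL libraries numbered 1.

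**Figure D4:**
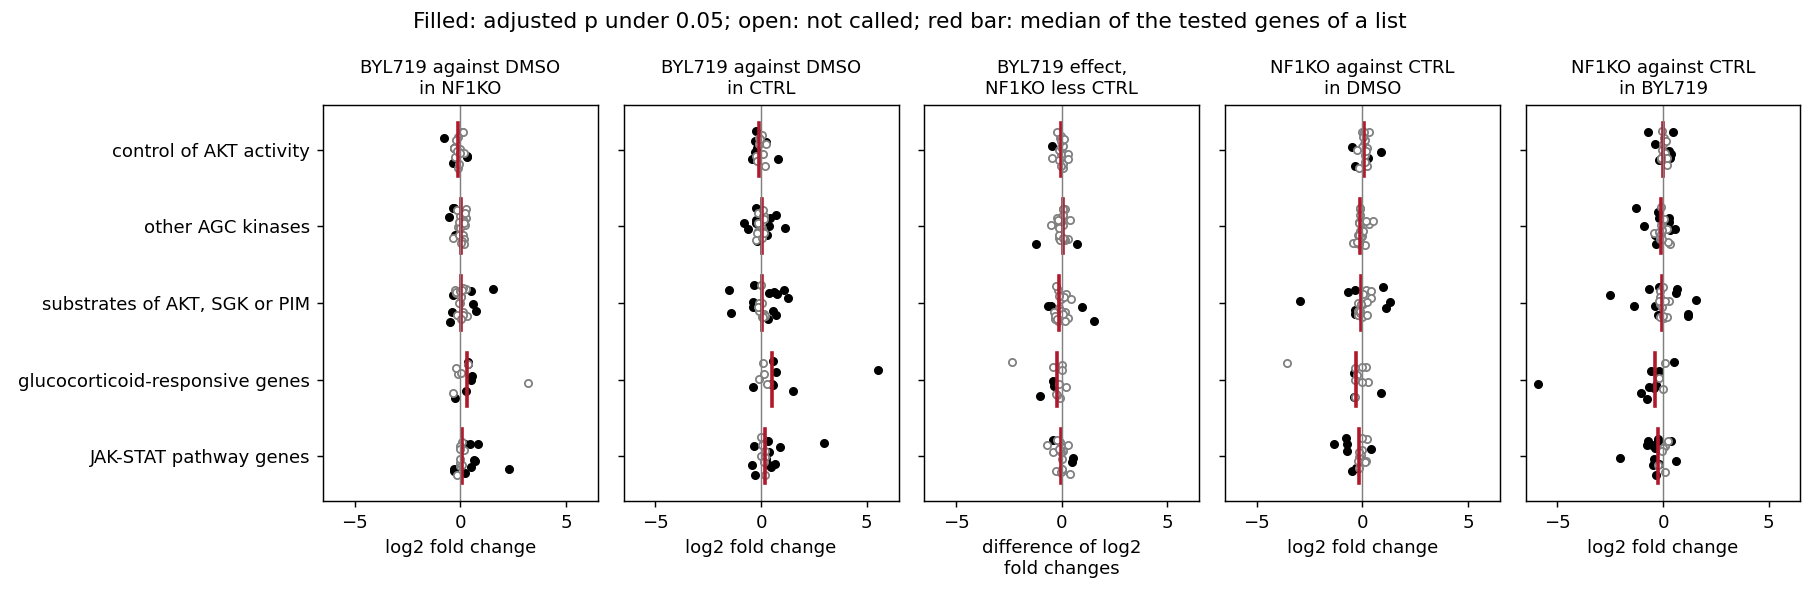
Log2 fold changes (x axis) of the tested genes of 5 pathway lists (rows) in 5 comparisons; filled points have an adjusted p under 0.05, open points do not, and red bars are list medians. The glucocorticoid-responsive genes have the medians farthest from 0, at 0.49 for BYL719 in CTRL and -0.39 for NF1KO against CTRL in BYL719; the point farthest out in that row is ZBTB16, with 0 to 2 counts in all libraries outside CTRL BYL719.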

How the data were processed

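Polyadenylated RNA of T47D cells was sequenced as stranded single reads of 76 bases, per the labels' protocols. The authors used STAR 2.5.2a, SAMtools 1.7, Picard 2.9.2, edgeR and hg38, per the submitters' processing notes. The deposited values are raw read counts by Entrez identifier, and the counting tool, the annotation and the use of strand are not given in the sources used here. The labels give 12 samples, of which the first NF1KO DMSO replicate was not analysed here.

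Counts were tested in R 4.3.3 with edgeR 4.0.16 (filterByExpr, TMM, a quasi-likelihood model of the 4 groups with 7 residual degrees of freedom, 5 comparisons, 2-sided). CPM used TMM-scaled totals. SE was taken from the log2 fold change and its F statistic (their ratio, with the root of F). Intervals of changes are at 95%. The members and lists were chosen with earlier results of these data known. Every member was named, with NF1, the genes most like a member by Pearson r of log2 CPM (prior count 2, mean of at least 2), and genes from up to 2 called per list and comparison by adjusted p. Exon lengths came from GENCODE release 29, positions from RefSeq GRCh38.p14. Depth limits the precision of SGK1, SGK2 and PIM1 most. Protein sequences were not used here.

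Other settings tried were scaling by upper quartile or RLE, leaving genes unfiltered, at least 1 CPM in 3 libraries, DESeq2 1.42.0, limma-voom (limma 3.58.1), a replicate block, only the libraries compared, and leaving out each library. A block within each line, leaving out both CTRL libraries numbered 1, and other exon lengths were added after the data were seen. Deviations from the group means of same-numbered CTRL DMSO and BYL719 libraries correlated across genes at 0.595, 0.337 and 0.318. DMSO 2 with BYL719 3 (0.228) and DMSO 3 with BYL719 2 (0.177) were also above 0. Deviations within a group sum to 0, so numbers 2 and 3 oppose number 1, which stood apart in both treatments. These values therefore cannot show whether libraries numbered 2 and 3 are paired, and the labels do not say so. The steps were tested on counts simulated from the same kind of model as the fit. That cannot show whether the model suits these data, and changes as small as those of AKT1, PIM2 and PIM3 were not simulated.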

Additional observations from a re-analysis of the deposited data

Results flagged for a closer look

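Several genes had a BYL719 effect that differed between the 2 lines by edgeR's quasi-likelihood test of the difference itself, and the values are log2, NF1KO less CTRL. Among the members these were SGK3 (0.70, adjusted p = 0.000608), PIM1 (0.99, adjusted p = 0.00226) and SGK1 (1.01, adjusted p = 0.0111).

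Among the pathway lists, up to 2 called genes per list are given by adjusted p. The effect was higher in NF1KO for the mitotic phosphatase CDC25C (1.51, adjusted p = 2.61e-05), its relative CDC25A (0.95, adjusted p = 0.000601), the kinase PKN3 (0.74, adjusted p = 0.0106) and the receptor subunit IL6ST (0.52, adjusted p = 0.0248). It was lower in NF1KO for RPS6KA2 (-1.24, adjusted p = 0.00359), DUSP1 (-1.01, adjusted p = 0.00807), TRIB1 (-0.47, adjusted p = 0.0387), STAT3 (-0.40, adjusted p = 0.00682) and ERRFI1, a feedback inhibitor of EGFR (-0.37, adjusted p = 0.028). The lists held 4 more called genes, named after their values were seen: JAK1 (0.46, adjusted p = 0.0341), NEDD4L (-0.67, adjusted p = 0.000608), IRS1 (-0.52, adjusted p = 0.00685) and NR3C1 (-0.41, adjusted p = 0.0414). These 4 were not followed singly on leaving out libraries. Counts of differing effects in the JAK-STAT and glucocorticoid lists, which hold JAK1 and NR3C1, changed as given with those lists. Leaving out single libraries ended the calls of ERRFI1 (adjusted p 0.0613 to 0.159, without CTRL DMSO 2 or 3, NF1KO DMSO 2 or 3 or NF1KO BYL719 2) and IL6ST (0.0511 to 0.12, without CTRL BYL719 2, NF1KO DMSO 2 or 3 or NF1KO BYL719 2), beside those given with SGK1, TRIB1, PKN3, DUSP1 and STAT3. With no filter on low counts TRIB1 and ERRFI1 were not called (adjusted p = 0.0595 and 0.0561).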

How the results depend on the processing

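Of 816 recomputed changes of the 8 tested members, 763 kept their direction and their side of the threshold. The number of members called for BYL719 in CTRL was 2, but 4 with a replicate block over all libraries and 6 with the block within each line. For the difference of effects it was 3, but 5 by DESeq2. Leaving out 1 library gave 1 to 3 calls for NF1KO against CTRL in DMSO, 4 to 5 in BYL719, 1 to 3 for BYL719 in NF1KO, 2 to 3 in CTRL and 2 to 4 for the difference, and the cause was not tested. In NF1KO, where the 2 numbered pairs correlated at 0.0838 and 0.149 and share only a number, the block within the line called PIM1 as well (0.30, adjusted p = 0.0339).

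Signs turned only for changes that were not called. AKT2 in DMSO between the lines, at -0.00076, became 0.0023 with RLE scaling, 0.00032 with no filter, 0.0024 by DESeq2, 0.0016 by limma-voom and 0.0041 with only the libraries compared, and ran from -0.049 to 0.047 leaving out 1 library. In the same comparison PIM2 became -0.023 with the replicate block and -0.060 without both CTRL libraries numbered 1, with -0.060 to 0.11 leaving out 1 library. PDPK1 became 0.015 with the block and 0.012 without both, with -0.043 to 0.019 leaving out 1. AKT2 for BYL719 in CTRL ran from -0.021 to 0.089 leaving out 1 library. The PIM3 difference became 0.024 with the block over all libraries and 0.0059 within each line, with -0.12 to 0.033 leaving out 1.

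No scaling moved the median change of all genes by 0.1. Calls over all genes for BYL719 in NF1KO were 3014, but 788 to 1794 without NF1KO DMSO 2 or 3 or NF1KO BYL719 2, 4664 with the replicate block, 6744 with it within each line and 5312 without both CTRL libraries numbered 1. For NF1KO against CTRL in DMSO they were 3269, but 1523 to 1561 without an NF1KO DMSO library. For the difference they were 1510, but 740 to 766 without an NF1KO DMSO library, 4345 with the block within each line and 2411 without both CTRL libraries numbered 1. Of 510 counts of list genes, 71 moved by over 1.5 times, 45 of them on leaving out 1 library. With 2 NF1KO DMSO libraries, the comparisons that use them have the least support.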
